A study of Mus musculus with 6 samples.

Results

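The machinery that takes a T cell through G1 was read in RNA from stimulated CD8 T cells as 10 genes, the D cyclins Ccnd1, Ccnd2 and Ccnd3, the E cyclins Ccne1 and Ccne2, the kinases Cdk4, Cdk6 and Cdk2, and the CDK inhibitors Cdkn1b and Cdkn2c. They were chosen by gene symbol, with earlier results of these data known, and are 10 of 49492 genes in the count table. All 10 passed the filter on low counts. D cyclins appear when growth signals reach a resting cell and pair with CDK4 and CDK6, which phosphorylate the retinoblastoma protein and free E2F transcription factors. E2F then raises cyclin E, which works with CDK2 to start DNA replication. The inhibitor p27, made from Cdkn1b, is abundant in resting T cells and is removed after stimulation through the T cell receptor, and p18, made from Cdkn2c, blocks CDK4 and CDK6.

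The libraries labelled KO came from NIK-CD4Cre-OT-I mice and those labelled WT from wild type OT-I mice, with 3 libraries for each. NIK, encoded by Map3k14, is the kinase that starts noncanonical NF-kB signalling, and Cre under Cd4 control acts from the double-positive stage of T cell development, in the CD4 and the CD8 lineage. All mice carried the OT-I T cell receptor on a C57/BL6 background and were 6 to 8 weeks old. Naive CD8 T cells from the spleen were stimulated for 24 hours by plate-bound antibody to CD3 and soluble antibody to CD28, each at 1 µg/ml. The comparison asks how the RNA of stimulated CD8 T cells differs when NIK is targeted in T cells. The labels do not say whether the 3 libraries of a genotype are 3 separate mice. Each label holds libraries of both sexes and so at least 2 mice, and p-values rest on the spread between these libraries, part of which may be technical.

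Total counts ran from 41311346 to 47851445 in the libraries labelled KO and from 45012963 to 46548251 in those labelled WT. Map3k14 had 2425, 2837 and 2271 counts in KO replicates 4, 5 and 6, and 2406, 2992 and 3025 counts in WT replicates 1, 2 and 3 (log2 fold -0.12, edgeR adjusted p = 0.806). A conditional allele may keep most exons, so whole-gene counts are a partial check of genotype. They did not separate the groups, and every direction below is between libraries as labelled. KO replicate 6 and WT replicates 1 and 3 carried female transcripts, the other 3 libraries male ones. The 6 CD8 T cell markers summed to 1729 to 1929 CPM (reads of a gene relative to the TMM-scaled library total) in the libraries labelled KO and to 1617 to 1819 CPM in those labelled WT. B cell markers summed to 26.6 to 39.0 CPM and 23.5 to 70.4 CPM under the KO and the WT label, and myeloid markers to 2.39 to 9.01 CPM and 2.16 to 3.68 CPM. Dendritic cell markers summed to 9.87 to 12.6 CPM under the KO label and 8.84 to 12.9 CPM under the WT label. CD4, regulatory and helper T cell markers (Cd4, Foxp3 and Zbtb7b) summed to 9.87 to 15.1 CPM and 11.3 to 26.1 CPM. NK cell markers did not exceed a sum of 0.259 CPM in any library.

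None of the 10 genes passed the comparison of libraries labelled KO with those labelled WT in edgeR's quasi-likelihood test with Benjamini-Hochberg adjustment over all 15186 tested genes. Stimulated cells of both labels expressed the same set, with cyclin D2 far above the other cyclins, CDK4 and CDK6 next, and cyclin D1 lowest. EdgeR called 0 of the 10, against 0.00659% of all tested genes (1 gene), and DESeq2 and limma-voom also called 0. At an unadjusted p under 0.05 there was 1 of 10, Cdk6, which was lower under the KO label, against 7.26% of all tested genes (3.44% lower). Groups overlapped for all 10, where they did not overlap for 12.8% of tested genes. The median log2 fold of the 10 was 0.064, beside 0.0071 over all tested genes.

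**Figure D1:**
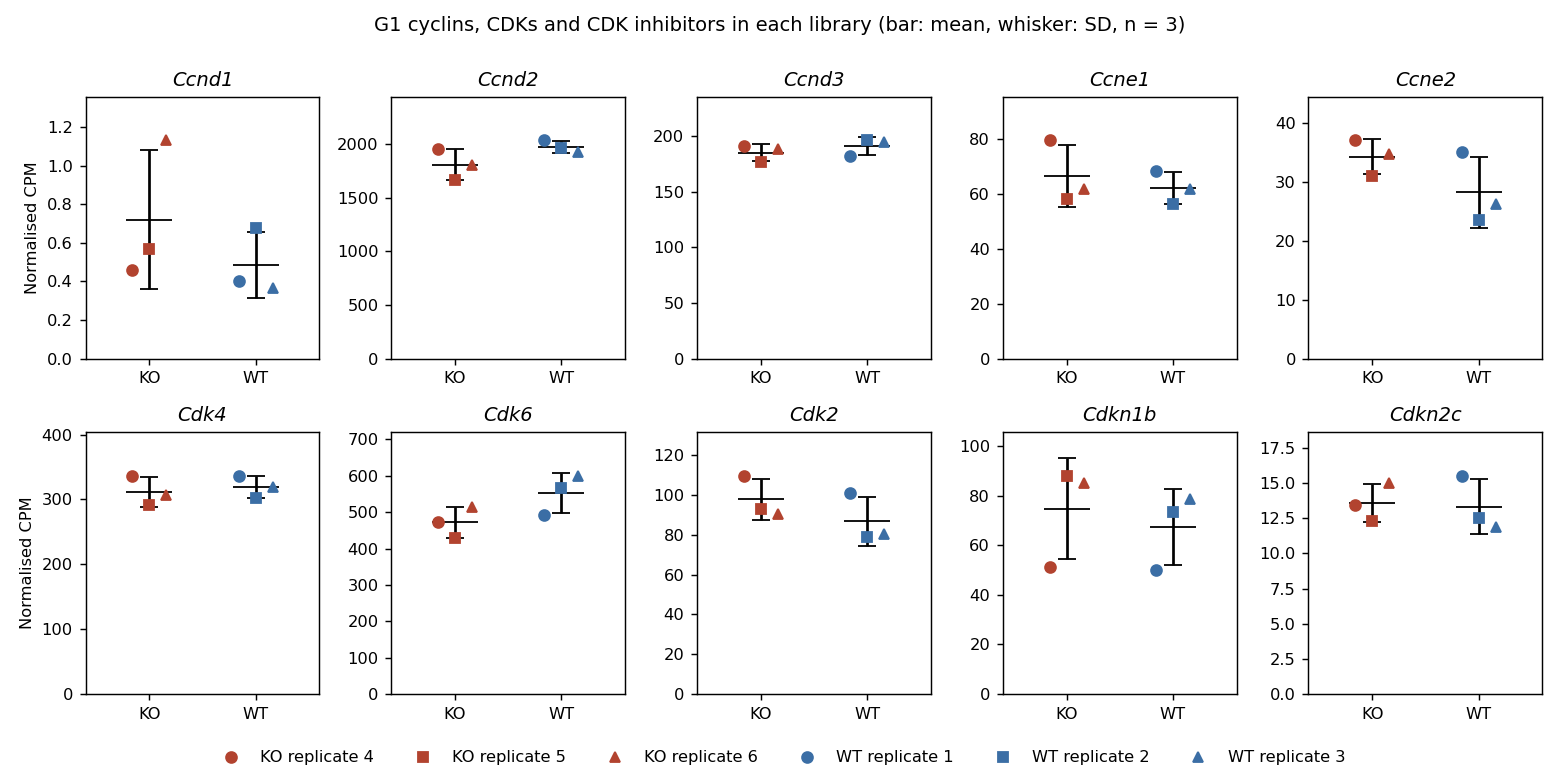
Normalised CPM of each gene in the 3 libraries labelled KO (red, left) and the 3 labelled WT (blue, right), with the mean as a bar and the SD as a whisker; every axis starts at 0. The groups overlap in every panel, from Ccnd2 near 1811 CPM (KO) and 1977 CPM (WT) to Ccnd1 near 0.720 CPM (KO) and 0.482 CPM (WT).

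Levels were compared between genes per kilobase of annotated exon, since a longer transcript collects more reads. Ccnd2 was the most abundant of the 10, with a mean of 192.4 ± 15.3 CPM per kilobase in the libraries labelled KO and 210.1 ± 5.73 in those labelled WT (SD, n = 3 each). Cdk4 came second, at 95.8 ± 6.96 CPM per kilobase under the KO label and 98.3 ± 5.29 under the WT label (SD, n = 3 each). Cdk6 followed at 33.8 ± 3.00 and 39.5 ± 3.93 CPM per kilobase (KO and WT labels, SD, n = 3 each). Over all 6 libraries these first 3 genes did not overlap each other or the gene ranked below them. Ccne1 (mean of all libraries 24.2 CPM per kilobase) and Ccnd3 (21.5) overlapped in range, as did Cdkn1b (15.6) and Cdk2 (14.9), so the order within each pair is not set by these data. Below them, without overlap, came Ccne2 at 8.97, Cdkn2c at 5.01 and Ccnd1 at 0.128 CPM per kilobase. Among tested genes with a length, Ccnd2 stood at the 98.8th percentile of level, Cdk4 at the 97.3rd, Cdkn2c at the 51.6th and Ccnd1 at the 5.65th. The lengths are unions of GENCODE exons, and a gene with long untranslated or rarely used exons, such as Cdk6 with 13989 bases, is placed lower by them.

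**Figure D2:**
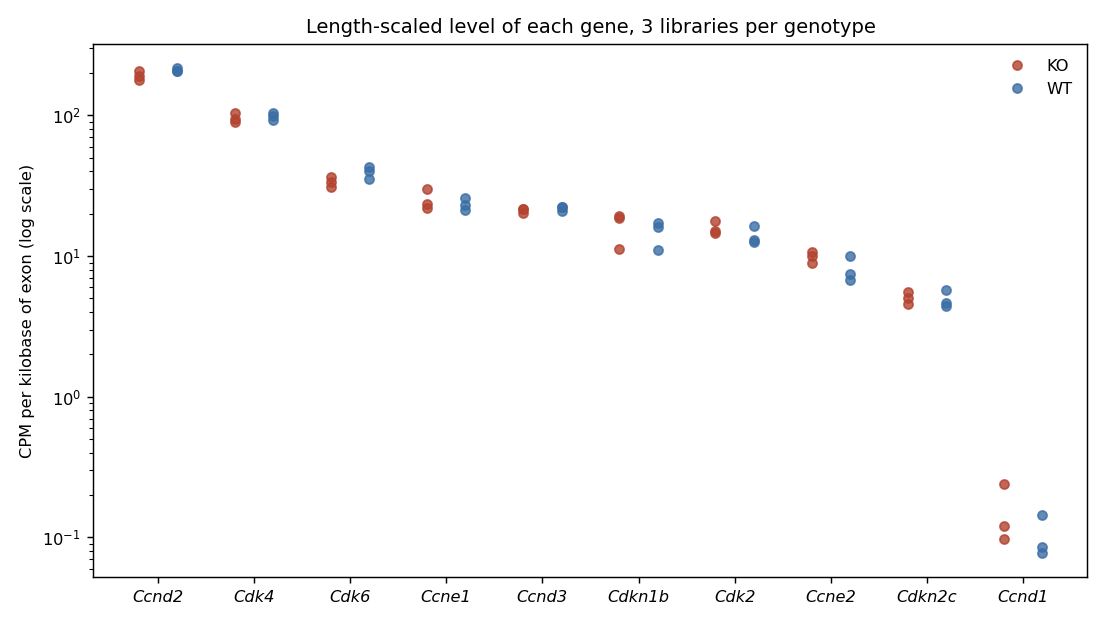
CPM per kilobase of exon on a log scale for the 10 genes in order of their mean, with each library labelled KO in red (left) and WT in blue (right). Ccnd2 and Cdk4 stand clear at the top, and Ccnd1, at 0.128 on average, lies far below the gene next to it, Cdkn2c at 5.01.

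Cyclin D2 carried most of the D cyclin RNA. Ccnd2 (chromosome 6, 127125162 to 127152193, minus strand, GRCm38) was at 1957, 1670 and 1805 CPM in KO replicates 4, 5 and 6, and at 2037, 1962 and 1932 CPM in WT replicates 1, 2 and 3. KO replicate 4 lay within the range of the libraries labelled WT, and KO replicates 5 and 6 lay below it. The fold was 0.916 with a 95% interval from 0.817 to 1.03 (log2 fold -0.13, SE 0.070, edgeR adjusted p = 0.708), and the log2 fold was -0.072 without KO replicate 5. Cyclin D3, the other D cyclin that lymphocytes use, was steadier than any other of the 10. Ccnd3 (chromosome 17, 47505051 to 47599691, plus strand) had 190.9, 177.0 and 188.2 CPM in KO replicates 4, 5 and 6, and 182.2, 196.4 and 194.9 CPM in WT replicates 1, 2 and 3. Its coefficient of variation over the 6 libraries was 3.99%, and its fold was 0.970 (95% interval 0.892 to 1.05, edgeR adjusted p = 0.847). The log2 fold of -0.044 ran from -0.077 without WT replicate 1 to -0.012 without KO replicate 5. Cyclin D1, which many other cell types use in place of D2 and D3, was low but above the floor of 3 counts in every library. Ccnd1 (chromosome 7, 144929931 to 144939925, minus strand) had 22, 25 and 47 counts in KO replicates 4, 5 and 6, and 18, 31 and 17 counts in WT replicates 1, 2 and 3. KO replicate 6 was the highest, and the log2 fold of 0.57 (SE 0.42, edgeR adjusted p = 0.767) was 0.090 without it and 0.89 without WT replicate 2. An opposite-strand gene, LTO1, shares 1100 of the 4709 exonic bases of Ccnd1. With no stated setting for strand or for overlapping genes, it is not known how reads there were counted.

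The make-up of the D cyclin pool overlapped between the labels. Ccnd2 made up 90.5%, 89.7% and 89.9% of length-scaled D cyclin RNA in KO replicates 4, 5 and 6, and 91.2%, 90.3% and 90.2% in WT replicates 1, 2 and 3. The mean was 90.0% ± 0.405 in the libraries labelled KO and 90.6% ± 0.569 in those labelled WT (SD, n = 3 each), and the groups overlapped. Ccnd3 supplied 9.90% ± 0.384 and 9.40% ± 0.563 (KO and WT labels, SD, n = 3 each), and Ccnd1 at most 0.113% in any library. These shares rest on unions of exons, 9409 bases for Ccnd2 and 8775 for Ccnd3, which may be longer than the transcripts in use.

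Both E cyclins, which bind and activate CDK2 at the end of G1, had positive folds that were within the spread of the libraries. Ccne1 (chromosome 7, 38097984 to 38107534, minus strand) was at 79.7, 58.3 and 62.0 CPM in KO replicates 4, 5 and 6, and at 68.4, 56.6 and 61.8 CPM in WT replicates 1, 2 and 3. KO replicate 4 was the highest library and WT replicate 2 the lowest, with the other 4 between 58.3 and 68.4 CPM. The log2 fold was 0.099 (SE 0.13, edgeR adjusted p = 0.866), and it turned to -0.049 without KO replicate 4. Ccne2 (chromosome 4, 11191351 to 11204779, plus strand) was at 37.1, 31.1 and 34.8 CPM in KO replicates 4, 5 and 6, and at 35.1, 23.6 and 26.3 CPM in WT replicates 1, 2 and 3. WT replicates 2 and 3 were lower than every library labelled KO, and WT replicate 1 was within the range of that group. The log2 fold of 0.28 (SE 0.15, 95% interval of the fold 0.949 to 1.55, edgeR adjusted p = 0.707) became 0.16 without WT replicate 2 (edgeR adjusted p = 0.966) and 0.46 without WT replicate 1. In the second of these the adjusted p of 0.087 was the smallest that any of the 10 genes reached under any alternative run. The opposite-strand gene Ints8 shares 609 of the 3495 exonic bases of Ccne2 and had 2472 to 2916 counts in the libraries labelled KO and 2486 to 2788 in those labelled WT. Ccne1 made up 71.7% ± 1.93 of length-scaled E cyclin RNA under the KO label and 74.4% ± 2.23 under the WT label (SD, n = 3 each), with overlapping groups.

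Of the kinases that bind D cyclins, Cdk6 had the smallest p of the 10 genes and Cdk4 one of the largest. Cdk6 (chromosome 5, 3341485 to 3531008, plus strand), a main partner of D cyclins in lymphocytes, was at 472.7, 430.0 and 514.1 CPM in KO replicates 4, 5 and 6, and at 492.7, 565.9 and 600.4 CPM in WT replicates 1, 2 and 3. WT replicates 2 and 3 were above every library labelled KO, while WT replicate 1 was below KO replicate 6. The fold was 0.854 (95% interval 0.734 to 0.994), with an unadjusted p of 0.0436 in edgeR that did not pass adjustment (log2 fold -0.23, SE 0.093, edgeR adjusted p = 0.682, DESeq2 adjusted p = 0.494). The log2 fold of Cdk6 stayed negative under every alternative, from -0.30 without WT replicate 1 to -0.16 without WT replicate 3.

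Cdk4 (chromosome 10, 127063534 to 127067920, plus strand) was at 336.0, 291.6 and 306.5 CPM in KO replicates 4, 5 and 6, and at 336.7, 302.3 and 319.3 CPM in WT replicates 1, 2 and 3. KO replicate 4 and WT replicate 1 were level at the top, and the other 4 libraries were within 291.6 to 319.3 CPM. Its fold was 0.975 with a 95% interval from 0.873 to 1.09 (edgeR adjusted p = 0.906), and the sign of the log2 fold changed without KO replicate 5 or WT replicate 1. The opposite-strand gene Tspan31, with 1264 to 1747 counts in the libraries labelled KO and 1667 to 1766 in those labelled WT, shares 641 of the 3249 exonic bases of Cdk4. Per kilobase Cdk4 made up 73.9% ± 1.77 of the combined Cdk4 and Cdk6 RNA under the KO label and 71.3% ± 2.88 under the WT label (SD, n = 3 each), with overlapping groups. By counts without length scaling, Cdk6 was the larger of the pair, and Cdk4 made up 39.8% under the KO label and 36.7% under the WT label.

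Cdk4 is a known target of the transcription factor MYC, which binds E-boxes with its partner MAX. Its promoter is shown because every library labelled KO was below every library labelled WT for Myc, where 6.07% of all tested genes were. Cdk4 RNA itself overlapped between the labels, and a link from Myc to Cdk4 was not tested. The RefSeq sequence of GRCm38.p6 for chr10:127063285-127063533, plus strand, holds the letters CACGTG 4 times within 249 bases, marked in capitals.
Cdk4 promoter: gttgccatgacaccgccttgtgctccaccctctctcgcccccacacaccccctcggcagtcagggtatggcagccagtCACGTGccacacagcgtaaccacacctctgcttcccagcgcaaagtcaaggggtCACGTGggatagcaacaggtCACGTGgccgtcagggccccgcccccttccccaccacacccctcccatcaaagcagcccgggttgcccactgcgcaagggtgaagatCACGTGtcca
The matches begin 172, 118, 98 and 11 bases before the transcription start of the promoter window. That start is not the first base of the GENCODE model of Cdk4. CACGTG reads the same on both strands and occurred at least once in 6.0% of 32851 promoter windows of the same length, and at least 4 times in 7 of them (0.0213%). Promoter sequences were matched for 7 of the 10 genes, in 9 windows. Searched on both strands with CACGTG, the E2F letters TTTGGCGC, TTTCCCGC, TTTGCCGC and TTTCGCGC, and the forkhead letters GTAAACA, these windows held 3 other matches. These were CACGTG 220 bases before a start of Cdk6, TTTCCCGC 140 bases before that of Cdk2 and GTAAACA 243 bases before a start of Ccnd3. Of all windows, 0.411%, 0.886%, 0.332% and 0.256% held the E2F letters in the order given, and 3.15% held GTAAACA. No window of the 7 genes held more than 1 kind of these letters, and the 4 matches of Cdk4 did not overlap. A match of letters is a description and does not show a bound site. Myc itself was at 812.2, 710.7 and 791.7 CPM in KO replicates 4, 5 and 6, and at 891.7, 931.6 and 872.2 CPM in WT replicates 1, 2 and 3 (log2 fold -0.22, edgeR adjusted p = 0.600).

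Cdk2 (chromosome 10, 128697939 to 128705031, minus strand), the partner of cyclin E, was at 109.8, 93.1 and 90.8 CPM in KO replicates 4, 5 and 6, and at 101.2, 78.8 and 80.5 CPM in WT replicates 1, 2 and 3. As for Ccne2, WT replicates 2 and 3 were below every library labelled KO and WT replicate 1 was not. The log2 fold was 0.17 (SE 0.12, 95% interval of the fold 0.932 to 1.37, edgeR adjusted p = 0.749). It was 0.083 without KO replicate 4 and 0.11 without WT replicate 2, and 0.30 without WT replicate 1 (edgeR adjusted p = 0.851, 0.974 and 0.186 in that order).

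Cdkn1b, the gene of p27, varied more between libraries than any other of the 10 except Ccnd1, and it did so within both labels. Cdkn1b (chromosome 6, 134920401 to 134925513, plus strand) was at 51.4, 88.2 and 85.1 CPM in KO replicates 4, 5 and 6, and at 49.9, 73.6 and 78.8 CPM in WT replicates 1, 2 and 3. KO replicate 4 and WT replicate 1 were low, and the other 4 libraries were between 73.6 and 88.2 CPM. The log2 fold of 0.15 had an SE of 0.24 (95% interval of the fold 0.746 to 1.65, edgeR adjusted p = 0.895), and it was -0.025 without WT replicate 1 and 0.36 without KO replicate 4. Cdkn2c (chromosome 4, 109660876 to 109667189, minus strand), an INK4 inhibitor of CDK4 and CDK6, was at 13.4, 12.3 and 15.0 CPM in KO replicates 4, 5 and 6, and at 15.5, 12.5 and 11.9 CPM in WT replicates 1, 2 and 3. The libraries of both labels covered about the same range, and the log2 fold was 0.028 (SE 0.12, edgeR adjusted p = 0.964), with a sign that changed without KO replicate 6, WT replicate 2 or WT replicate 3.

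**Figure D3:**
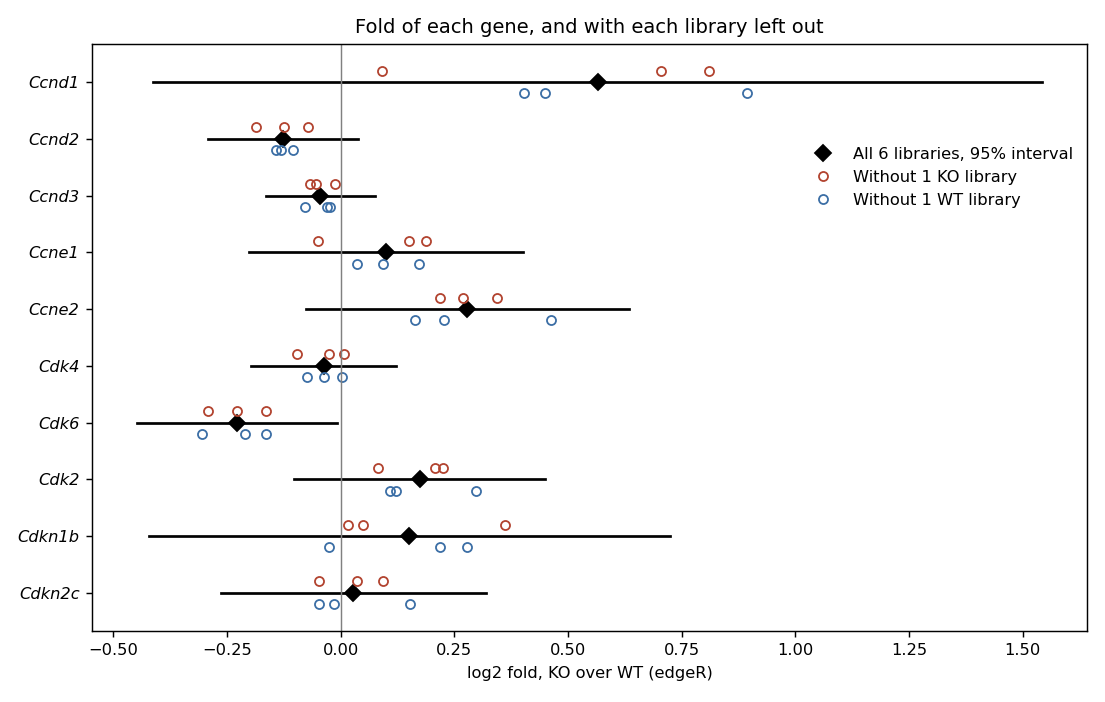
Log2 fold of each gene, KO over WT, from edgeR with its 95% interval (black), and the fold with 1 library left out (red rings for a library labelled KO, blue rings for one labelled WT). The interval of Cdk6, -0.45 to -0.0085, is the only one that does not reach 0, and Ccnd1 and Cdkn1b have the widest intervals.

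Libraries differed among themselves along a pattern that crossed the labels. KO replicate 4 and WT replicate 1 were the lowest 2 libraries for Cdkn1b and the highest 2 for Ccne1, Ccne2, Cdk2 and Cdk4. The same libraries had the highest summed level of 14 E2F targets that act in DNA replication, such as the Mcm2 to Mcm7 helicase genes and Pcna. That sum was 4945, 3955 and 4127 CPM in KO replicates 4, 5 and 6, and 4704, 3644 and 3761 CPM in WT replicates 1, 2 and 3. For 10 mitosis genes, such as Mki67 and Top2a, the sum was 1681, 1425 and 1573 CPM in KO replicates 4, 5 and 6, and 1702, 1132 and 1148 CPM in WT replicates 1, 2 and 3. WT replicates 2 and 3 were the lowest 2 libraries for E2F targets, mitosis genes, Ccne2 and Cdk2, and the highest 2 for Cdk6. They were also the highest 2 for the summed B cell markers, at 70.4 and 45.4 CPM. The same held for the summed CD4, regulatory and helper T cell markers, at 20.45 and 26.05 CPM. For the summed CD8 T cell markers they were the lowest 2, at 1617 and 1622 CPM. The part of other cell types in the levels of the cell cycle genes was not tested. In bulk RNA, fewer cells in a phase of the cycle and less RNA per cell cannot be told apart.

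**Figure D4:**
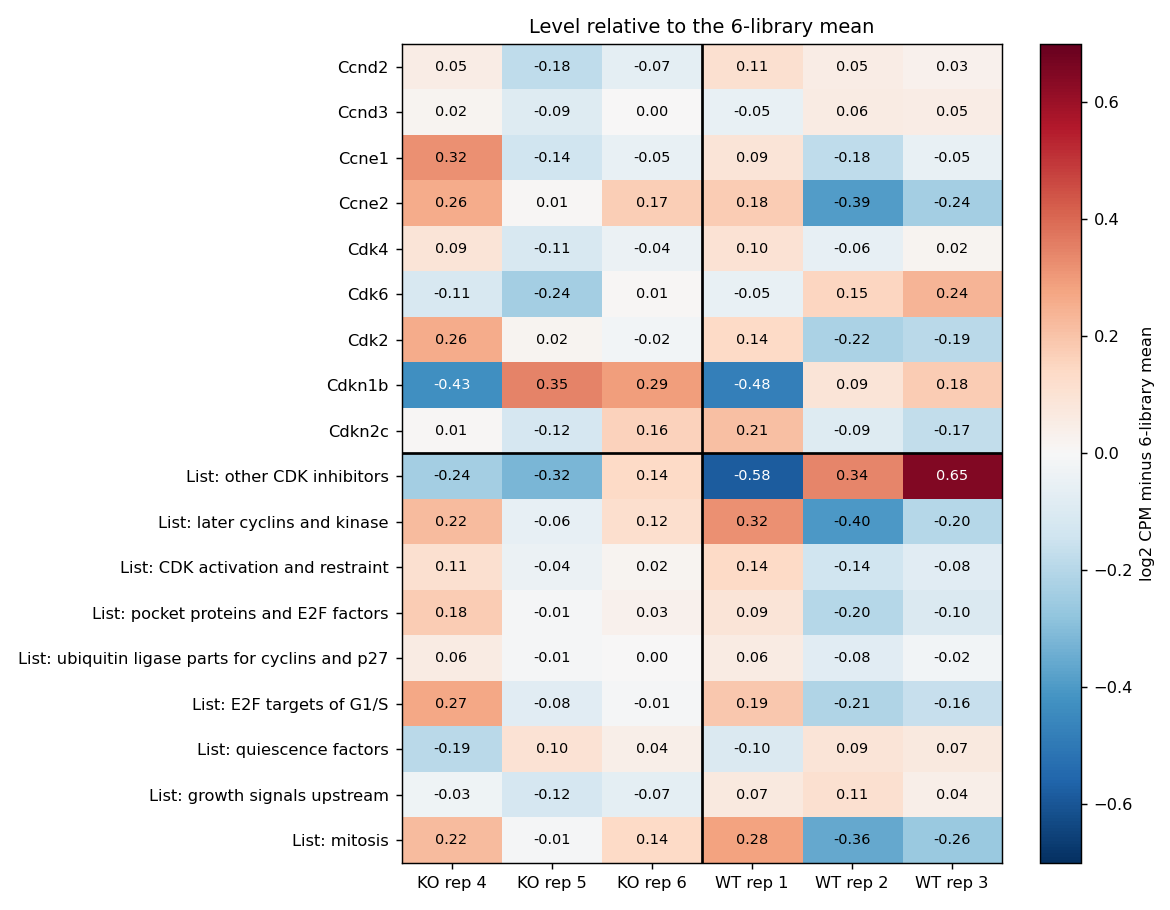
Log2 CPM minus the mean of the 6 libraries for 9 of the genes (upper block, Ccnd1 left out for its low counts) and the mean of the same measure over each list of other pathway genes (lower block), with libraries labelled KO to the left of the line. KO replicate 4 and WT replicate 1 are both low for Cdkn1b, at -0.43 and -0.48, and both high for the E2F targets, at 0.27 and 0.19.

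Other genes that act around the G1 machinery were described by lists of 83 genes, of which 82 were tested. EdgeR called 0 of them, limma-voom called 0, and DESeq2 called 1 lower, against 0.598% of genes that DESeq2 tested. In edgeR an unadjusted p under 0.05 was reached by 2 in the higher direction (3.82% of all tested genes) and by 5 in the lower (3.44%). Without WT replicate 1 edgeR called 3 (0.764% of tested genes), of which Mki67 and the mitotic kinesin gene Cenpe were higher in the libraries labelled KO and the CDK inhibitor gene Cdkn1a was lower. Groups did not overlap for 10 of 82, near the 12.8% of all tested genes, with the libraries labelled KO above for 4 (6.68% of all tested genes) and below for 6 (6.07%).

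Among the other CDK inhibitors Cdkn1a, the p53-induced inhibitor p21, had the smallest p. It was at 47.2, 59.3 and 55.5 CPM in KO replicates 4, 5 and 6, and at 51.8, 96.0 and 84.6 CPM in WT replicates 1, 2 and 3 (log2 fold -0.52, SE 0.22, edgeR adjusted p = 0.682). WT replicates 2 and 3 were above all libraries labelled KO and WT replicate 1 was not, and without WT replicate 1 the log2 fold was -0.74 (edgeR adjusted p = 0.043). Cdkn2d, the gene of the INK4 inhibitor p19, averaged 15.6 ± 1.88 CPM under the KO label and 16.1 ± 3.04 CPM under the WT label (SD, n = 3 each), and Cdkn1c, Cdkn2a and Cdkn2b were each under 1 CPM in every library.

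Growth signals that act ahead of the D cyclins had 9 negative estimates of 9, none called by edgeR, with a median log2 fold of -0.20. With a library left out the median ran from -0.21 to -0.090, the value nearest 0 being without WT replicate 2 (-0.13 without KO replicate 5), and at least 8 of the 9 were negative. Stat5a, which carries the IL-2 signal to genes such as Ccnd2, had the smallest p of the 82, at 261.7, 256.1 and 269.5 CPM in KO replicates 4, 5 and 6, and at 298.4, 297.6 and 310.5 CPM in WT replicates 1, 2 and 3. The adjusted p of its log2 fold, -0.20 (SE 0.044), was 0.525 in edgeR and 0.0438 in DESeq2. For 5 of the 9, Myc, Stat5a, the IL-2 receptor gene Il2ra, the kinase gene Pim1 and Mtor, every library labelled KO was below every library labelled WT, where 6.07% of all tested genes were. The 9 genes were read in the same 6 libraries and listed with earlier results known, so these counts are not of independent observations. Pim1 averaged 483.4 ± 3.76 CPM under the KO label and 561.3 ± 45.0 CPM under the WT label (SD, n = 3 each, edgeR adjusted p = 0.600). Stat5b, the close relative of Stat5a, averaged 194.9 ± 11.5 CPM and 199.8 ± 10.3 CPM (KO and WT labels, SD, n = 3 each), with overlapping groups.

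Pocket proteins and E2F factors had 12 positive estimates of 13 (9 of 13 without KO replicate 4) and a median log2 fold of 0.12, and edgeR called 0. The median was 0.060 without KO replicate 4, 0.068 without WT replicate 2 and 0.18 without WT replicate 1. Rbl1, the gene of the pocket protein p107, was at 107.6, 108.0 and 108.8 CPM in KO replicates 4, 5 and 6, and at 102.4, 95.1 and 95.4 CPM in WT replicates 1, 2 and 3 (log2 fold 0.15, SE 0.047, edgeR adjusted p = 0.612). Rb1 and the E2F partner gene Tfdp2 also had every library labelled KO above every library labelled WT, where 6.68% of all tested genes did. All 14 E2F targets had positive estimates, from 0.036 to 0.21 with a median of 0.11, and so did all 10 mitosis genes, with a median of 0.20; the smallest p in them were those of Mcm7 (log2 fold 0.15, edgeR adjusted p = 0.781) and Kif11 (log2 fold 0.32, edgeR adjusted p = 0.707). The E2F targets depended on KO replicate 4, without which 6 of 14 were positive and the median was -0.0066 (0.034 without WT replicate 2, 0.061 without WT replicate 3 and 0.25 without WT replicate 1), and the mitosis median was 0.087 without WT replicate 2 (8 of 10 positive), 0.12 without WT replicate 3 and 0.48 without WT replicate 1. Genes of these lists varied together between libraries, so their shared sign is not a count of independent observations.

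The 4 tested genes among the later cyclins and their kinase had positive estimates (3 of 4 without WT replicate 2 or 3), the smallest p being that of Ccna2 (cyclin A2), at 110.7 ± 13.4 CPM under the KO label and 93.0 ± 23.8 CPM under the WT label (SD, n = 3 each, edgeR adjusted p = 0.759). Ccna1, cyclin A1, was at 0 in every library. Ubiquitin ligase parts that mark cyclins and p27 for destruction had a median log2 fold of 0.027 over 11 genes (-0.019 without WT replicate 2), and the 2 that act most directly on p27, Skp2 and Cks1b, averaged 22.3 ± 2.56 and 49.9 ± 4.20 CPM under the KO label and 20.9 ± 2.85 and 48.8 ± 7.13 CPM under the WT label (SD, n = 3 each). Skp1a had the smallest p there (log2 fold 0.097, edgeR adjusted p = 0.754). Kinases and phosphatases that activate or restrain CDKs had a median of 0.060 over 8 genes (-0.0077 without WT replicate 2), with Ccnh, a subunit of the CDK-activating kinase, at a log2 fold of 0.10 (edgeR adjusted p = 0.781). Quiescence factors had a median of -0.061 over 8 genes (0.0078 without KO replicate 4), with Foxo1, a forkhead factor that raises Cdkn1b in resting cells, at a log2 fold of -0.095 (edgeR adjusted p = 0.703).

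**Figure D5:**
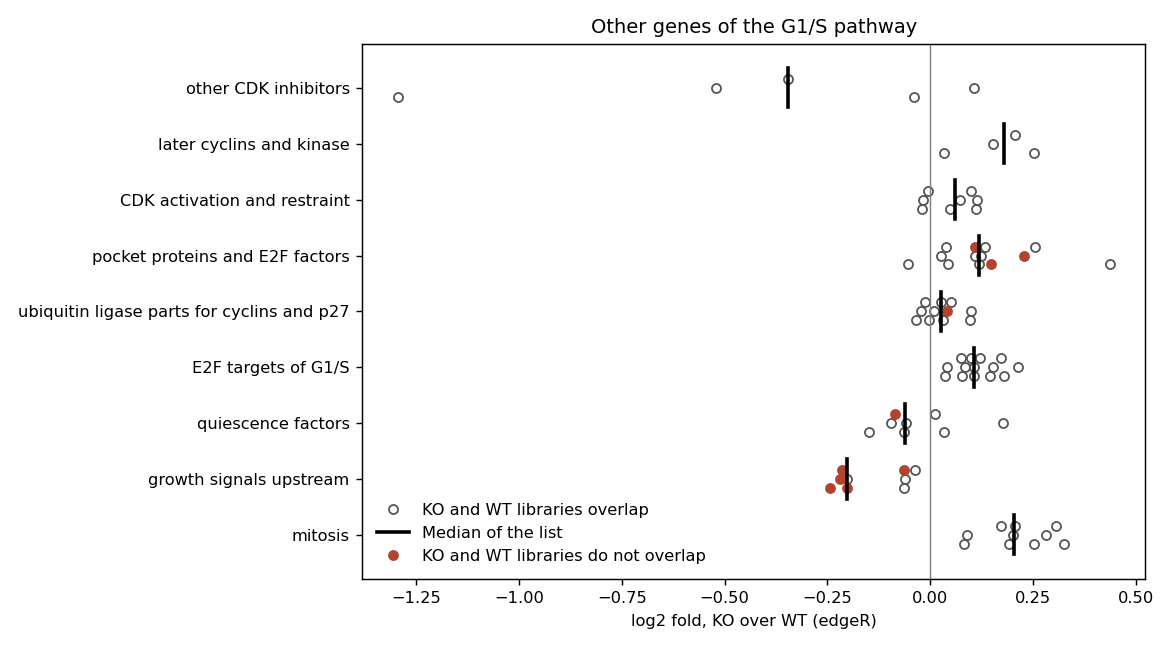
Log2 fold, KO over WT, of the 82 tested genes in 9 lists around the G1 machinery, with the list median as a black bar; filled points are genes whose libraries labelled KO and WT do not overlap. Growth signals lie to the left of 0 and E2F targets and mitosis genes to the right, with medians of -0.20, 0.11 and 0.20; without KO replicate 4 the median of the E2F targets is -0.0066.

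Likeness to each gene was measured as Pearson's r of log2 CPM over the 6 libraries, among 8652 tested genes that averaged 10 CPM or more. It is a description of 6 points, picked as the highest among many genes. Ccnd2 was most like Slc29a2 (r = 0.996) and Rars (r = 0.994), Ccnd3 like Tmem185b (r = 0.997) and Hspbap1 (r = 0.987), and Ccne1 like Pop1 (r = 0.991) and Hnrnpk (r = 0.990). Ccne2 was most like Cenpi (r = 0.998) and Spag5 (r = 0.997), Cdk2 like Wdr76 (r = 0.999) and Apex2 (r = 0.998), Cdk4 like Dnajc16 (r = 0.997) and Dxo (r = 0.994), and Cdk6 like Morf4l1 (r = 0.995) and Adap1 (r = 0.985). Cdkn1b was most like Smim14 (r = 0.9995) and Dync1i2 (r = 0.998), and Cdkn2c like Bri3 (r = 0.995) and Supv3l1 (r = 0.976). Within the 10, with Ccnd1 left out as under 10 CPM, the closest pairs were Cdk2 with Ccne2 (r = 0.919) and Cdk4 with Ccne1 (r = 0.850). Cdk2 with Ccne1 (r = 0.848) and Cdk6 with Ccnd3 (r = 0.846) were nearly level with the latter. Among all genes compared, Ccne2 ranked only 517 for Cdk2, and Ccne1 ranked 707 for Cdk4. The most opposed pair within the 10 was Cdk4 with Cdkn1b (r = -0.895).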

How the data were processed

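RNA from 6 libraries of stimulated CD8 T cells was analysed as read counts. The authors deposited raw counts per gene symbol, with a column for each library. The submitters' processing notes name HTSeq 0.9.1, DESeq2 and build mm10 but give no role for the tools. Neither an aligner, a gene annotation nor a strand setting is named in them. Genotypes were taken from the sample titles, and 0 columns and 0 rows without a gene were left out.

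EdgeR 4.0.16 in R 4.3.3 was fitted to all genes after filterByExpr, with TMM factors, robust glmQLFit and glmQLFTest. A gene with a Benjamini-Hochberg adjusted p under 0.05 over all tested genes was called, and log2 folds are KO over WT. The SE is the absolute log2 fold divided by the root of F, and intervals are at the 95% level. Floors of 3 counts, 0.0627 to 0.0722 CPM, cover counting error only. Exon lengths and coordinates came from GENCODE M21 on GRCm38, which is mm10, and promoters from RefSeq. Other settings tried were factors by RLE or upper quartile, no filter, a filter of 1 CPM in 3 libraries, limma-voom (limma 3.58.1), DESeq2 1.42.0, a term for sex read from Xist and Y-linked counts, each library left out, and shares without length scaling. The procedure was tested on simulated counts.

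The 10 genes and the lists were chosen with earlier results of these data known. Beyond the 10 genes, the rule named the gene with the smallest p in each list and, for each gene over 10 CPM, the 2 most alike in profile. Any further gene was picked with its values in view.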

Additional observations from a re-analysis of the deposited data

How the results depend on the processing

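EdgeR and the alternatives called 0 of the 10 genes in every setting run, leaving out each library included. The filter of 1 CPM in 3 libraries removed Ccnd1, which was therefore not tested in that setting. Over all genes, 1 was called, against 10 without a low-count filter, 90 in DESeq2 (60 higher and 30 lower), and from 1 to 119 with a library left out; the 119 (52 higher and 67 lower) came without WT replicate 1, and 2 were called without WT replicate 2. Of the 82 other pathway genes 0 were called, against 1 in DESeq2 and from 0 to 3 with a library left out, the 3 without WT replicate 1. In all, 122 of 129 alternative folds of the 10 genes kept their sign and side of the threshold, and 7 changed sign, all of them with a library left out. The log2 fold then ran from -0.049 to 0.19 for Ccne1, -0.095 to 0.0083 for Cdk4, -0.025 to 0.36 for Cdkn1b and -0.047 to 0.15 for Cdkn2c. Shares by counts in place of length-scaled levels were, under the KO and the WT label, 90.7% and 91.2% for Ccnd2 among D cyclins, 65.8% and 68.9% for Ccne1 among E cyclins, and 39.8% and 36.7% for Cdk4 beside Cdk6, the difference in exon length being the only change. No paired analysis was possible because the labels give no pairing between the KO libraries, numbered 4 to 6, and the WT libraries, numbered 1 to 3. Among the 10 genes, depth limits only Ccnd1, with 17 to 47 counts per library.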
